A study of Mus musculus with 11 samples.

Results

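The smooth muscle contractile apparatus was followed in mouse colon as a list of 35 genes, chosen by name for their known roles in smooth muscle with earlier results of these data in view, out of 22836 genes in the deposited table. All 35 were found by symbol, and all 35 passed the filter (a mean of 10 or more normalized counts over the libraries) that left 16781 genes to test. RNA came from unsorted colon tissue of 3 groups of mice that all carried floxed Tfam alleles. The study's methods describe extraction from a piece of frozen tissue and do not name the colon segment. The labels give no age, and the study describes mice of all 3 groups in its transfer experiment as 10 months old. The control group (3 libraries) was Tfam fl/fl without Cre. The KO group (3 libraries) was Tfam fl/fl Cd4 Cre, in which Cre driven by Cd4 regulatory sequence is active in T cells, CD8 T cells included, and removes the mitochondrial transcription factor TFAM there. The AT group (5 libraries) had the genotype of the KO group and had been given CD4 T cells isolated from spleen and lymph nodes of young Ly5.1 mice, an adoptive transfer. The labels number the libraries of a group and name no animal, so the p-values below measure the spread between these libraries.

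Smooth muscle of the gut wall contracts when calcium entering the cell, or released from its stores, binds calmodulin and activates myosin light chain kinase, which phosphorylates the regulatory light chain of myosin. Myosin then pulls on actin filaments that carry tropomyosin, caldesmon and calponin and are anchored in dense bodies and membrane plaques, with desmin filaments holding the cell in shape. Most genes of this apparatus are switched on by serum response factor and its coactivator myocardin, which act through a DNA element known as the CArG box. In whole tissue, fewer muscle cells and less RNA per muscle cell cannot be told apart, and several members, such as Flna, Tpm1, Cald1, Actn1 and Cav1, are also used outside muscle. The study's histology of KO colon described a thickened muscular layer, and its relation to the RNA levels below was not tested.

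Each library held 18214741 to 19178986 reads in genes, and 1 read was worth 0.913 to 1.10 normalized counts. The deleted gene could not check the labels in unsorted colon tissue, where T cells are a minority: Tfam differed by 0.06 on the log2 scale between KO and control (standard error 0.10, adjusted p = 0.678, limma). The defining smooth muscle markers were detected in every library, with at least 6111 normalized counts of Myh11, 3996 of Actg2, 1016 of Smtn and 345 of Lmod1, the lowest of them. AT replicate 5 stood furthest from AT replicates 1, 3 and 4 over all genes, and its values are included below and were left out in turn.

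The upstream sequences of the members were searched for CArG boxes, the element through which this gene set is known to be controlled. In the 300 bases before any annotated start of a protein-coding transcript, 6 of 35 members (17.1%) held a full box, against 2.76% of 16384 protein-coding genes of the table. With 1 base of the core allowed to be G or C, the near form, 15 members (42.9%) held a full box or a near form, against 17.1% of all genes. Of the 17 genes that encode nonmuscle counterparts of these proteins, 3 held a full box (17.6%) and 6 a box or near form (35.3%). Members and all genes had a median of 2 start sites each, the counterparts 3. The full boxes lay before starts of Tagln, Cald1, Tpm2, Myl9, Flna and Csrp1. A match is a description of these letters and not a bound site, and boxes elsewhere in the genes were not searched. The following stretches of 200 bases (GRCm39, read 5′ to 3′ along the gene, ending at the base before a start site) are shown because they hold a box and overlap no annotated exon of the gene; Actg2, the member highest in control colon per length, is shown for its near form. Capitals mark boxes and near forms.
Tagln, chr9:45847405-45847604, minus strand: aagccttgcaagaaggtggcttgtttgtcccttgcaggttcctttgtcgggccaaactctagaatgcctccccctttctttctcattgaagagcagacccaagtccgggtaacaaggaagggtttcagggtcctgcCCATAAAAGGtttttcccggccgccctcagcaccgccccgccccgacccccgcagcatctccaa
Csrp1, chr1:135652046-135652245, plus strand: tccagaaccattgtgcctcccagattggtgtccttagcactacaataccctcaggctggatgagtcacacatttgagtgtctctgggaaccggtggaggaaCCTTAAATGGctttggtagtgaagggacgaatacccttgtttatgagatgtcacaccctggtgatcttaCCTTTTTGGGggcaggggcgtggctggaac
Flna, chrX:73293457-73293656, minus strand: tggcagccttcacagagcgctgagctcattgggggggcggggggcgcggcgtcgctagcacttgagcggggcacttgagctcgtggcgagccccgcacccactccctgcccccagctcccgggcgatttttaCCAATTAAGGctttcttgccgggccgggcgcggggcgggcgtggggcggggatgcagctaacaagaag
Actg2, chr6:83505146-83505345, minus strand: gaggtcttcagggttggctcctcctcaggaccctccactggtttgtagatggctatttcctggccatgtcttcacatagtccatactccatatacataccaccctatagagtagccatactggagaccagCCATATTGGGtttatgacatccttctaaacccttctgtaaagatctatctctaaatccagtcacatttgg
The box of Tagln lay 64 bases before the outermost annotated start, and that of Flna 68. The box of Csrp1 lay 99 bases and the near form of Actg2 70 bases before an internal start. The 300 bases before the outermost annotated starts of Csrp1 and Actg2 held neither a box nor a near form. These 4 genes were among the more abundant members, and all 4 were called in each comparison in the values below except Flna between AT and control.

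Nearly the whole contractile apparatus was lower in KO colon than in control colon. Of 35 members, 34 were called lower and 0 higher by limma on log2(normalized count + 1) at a Benjamini-Hochberg adjusted p under 0.05, on a scale that understates changes of genes with few reads. Over all tested genes 22.9% were called lower and 22.7% higher. The median log2 fold change was -2.57 over the members and 0.02 over all tested genes. In 34 members every KO library lay below every control library, which was so for 27.9% of all tested genes. Together the members took 1.97% to 2.65% of the reads in genes in the control libraries and 0.359% to 0.512% in the KO libraries. The only member not called was Ldb3.

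After the transfer the members were higher than in KO colon. Between AT and KO, 33 of 35 members were called higher and 1, Ldb3, lower, where 17.0% of all tested genes were called higher and 14.2% lower. The median log2 fold change was 1.70 over the members and -0.02 over all tested genes. In 31 members every AT library lay above every KO library, which was so for 17.6% of all tested genes. Actn1 was the member not called. In the AT libraries the members took 1.03% to 1.55% of the reads in genes, between the ranges of both other groups.

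Most members were still below the control level in AT colon. Between AT and control, 16 of 35 members were called lower and 0 higher, where 0.453% of all tested genes were called lower and 1.14% higher. In 29 members every AT library lay below every control library, which was so for 5.49% of all tested genes. The median log2 fold change was -0.80 over the members and -0.01 over all tested genes, and 31 members were lower at an unadjusted p under 0.05. The number called rested on single libraries: it was 0 without control replicate 2, 2 without control replicate 1, 3 without control replicate 3, 1 without AT replicate 1, 9 without AT replicate 3 and 6 without AT replicate 4, and 28 with DESeq2. The median log2 fold change stayed between -0.91 and -0.68 over all single libraries left out. The comparisons of KO and AT with control share the control libraries, and the comparisons of AT with KO and KO with control share the KO libraries, so they are not independent.

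**Figure D1:**
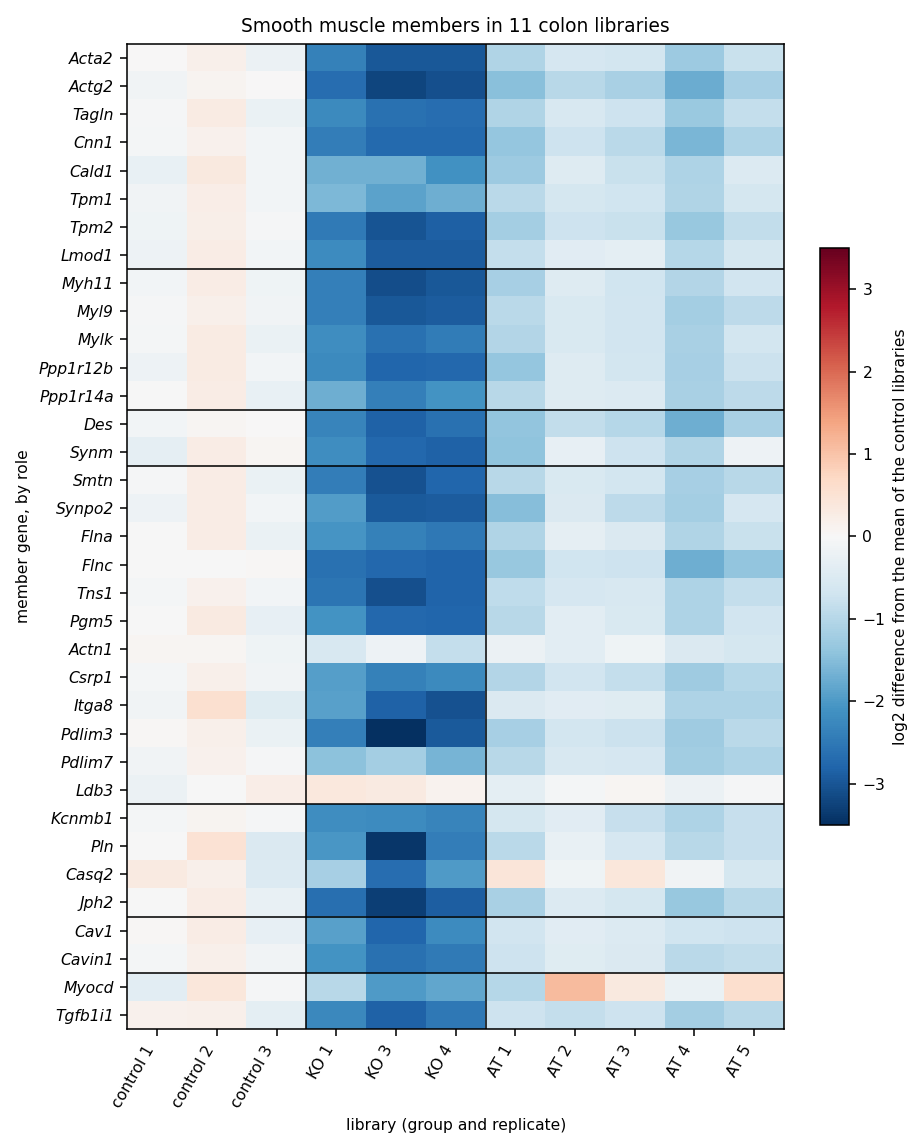
Heat map of log2 difference of each member (rows, by role, black lines between roles) from the mean of the control libraries in each of the 11 libraries (columns). The KO columns are blue for all members but Ldb3, with a pale Actn1, and the AT columns are paler blue, with Casq2 and Myocd near or above the control level in several libraries.

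The heat map of all members by library shows this pattern at once. The median over the 35 members of the log2 difference from the control mean was -2.17, -2.75 and -2.67 in KO replicates 1, 3 and 4. In the AT libraries it was -1.01, -0.47, -0.64, -1.13 and -0.81 in replicates 1 to 5. All 5 AT libraries thus lay between the KO and the control libraries, which were at -0.06, 0.24 and -0.12. AT replicate 2 was nearest to control and AT replicate 4 nearest to KO.

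The thin filament genes encode smooth muscle actins and the proteins that sit on them. Per kilobase of exon, the control level was highest for Actg2, the enteric gamma actin, with 16634 normalized counts, followed by Tagln (15249) and Acta2 (14771). In KO colon the order of these genes was Tagln (2677), Acta2 (2198) and Actg2 (2136), and in AT colon Tagln (8227), Acta2 (8152) and Actg2 (6895). Within each group, neighbours in these orders differed by less than the larger of their SDs.

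Actg2 (chr6:83489887-83513551 of GRCm39, as are all positions here) had 33931, 39399 and 37249 normalized counts in the control libraries, 5834, 3996 and 4372 in the KO libraries and 13245, 18796, 16771, 11033 and 16555 in the AT libraries. No library of a group overlapped another group. Its log2 fold change was -2.98 between KO and control (standard error 0.20, adjusted p = 5.75e-06, limma), 1.68 between AT and KO (standard error 0.18, adjusted p = 0.00015) and -1.29 between AT and control (standard error 0.18, adjusted p = 0.0131). The last was the largest difference of any member in that comparison, and AT colon held 41.5% ± 8.4 (SD, n = 5) of the control mean.

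Acta2 (chr19:34217737-34232990), the alpha actin shared by vascular and visceral muscle, had 47669, 53888 and 41440 normalized counts in control, 9189, 6037 and 6048 in KO and 22867, 31262, 30381, 19488 and 27526 in AT libraries. The 3 groups again did not overlap. It fell by 2.77 on the log2 scale in KO against control (standard error 0.22, adjusted p = 8.37e-06, limma) and rose by 1.90 in AT against KO (standard error 0.19, adjusted p = 0.000128). Against control the AT value of -0.87 narrowly missed the threshold (standard error 0.19, adjusted p = 0.0503). The ratio of Actg2 to Acta2, chosen after the values were seen and given without a test, was 0.781 ± 0.103 in control (SD, n = 3), 0.673 ± 0.0452 in KO (SD, n = 3) and 0.580 ± 0.0217 in AT libraries (SD, n = 5), as a ratio of normalized counts. The AT libraries, at 0.552 to 0.601, lay below all libraries of the other groups.

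Tagln, which encodes the actin-bundling protein transgelin, had 29701, 37615 and 26189 normalized counts in control, 6575, 5009 and 4830 in KO and 14755, 21078, 18568, 12451 and 17226 in AT libraries, with log2 fold changes of -2.51, 1.61 and -0.90 in the comparisons of KO with control, AT with KO and AT with control. Cnn1, the gene of calponin, which binds actin and slows myosin, had 15946, 18656 and 15519 normalized counts in control, 3088, 2521 and 2542 in KO and 6525, 10169, 8647, 5488 and 7877 in AT libraries. For both genes the groups did not overlap and all 3 comparisons were called (for Cnn1 between AT and control, -1.14, standard error 0.18, adjusted p = 0.0216, limma).

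The tropomyosin genes fell unequally. Tpm2, the beta tropomyosin of muscle, had 14.7% ± 2.94 of its control mean in KO colon (SD, n = 3) and Tpm1, whose transcripts also serve nonmuscle cells, 30.4% ± 3.42 (SD, n = 3). Their log2 fold changes between KO and control were -2.78 (standard error 0.19) and -1.72 (standard error 0.16). The ratio of Tpm1 to Tpm2 normalized counts, also chosen after the values were seen, was 1.58 ± 0.0626 in control (SD, n = 3), 3.29 ± 0.296 in KO (SD, n = 3) and 1.80 ± 0.0937 in AT libraries (SD, n = 5), and every KO library lay above every library of the other groups. Cald1, the gene of caldesmon, which has a smooth muscle and a nonmuscle isoform, fell by 1.83 (standard error 0.23, adjusted p = 0.000129, limma) and Lmod1, a leiomodin that nucleates actin filaments, by 2.67 on the log2 scale (standard error 0.22, adjusted p = 1.23e-05). Gene counts do not separate these isoforms. Of the 8 thin filament genes, 8 were called lower in KO, 8 higher in AT against KO and 5 lower in AT against control.

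**Figure D2:**
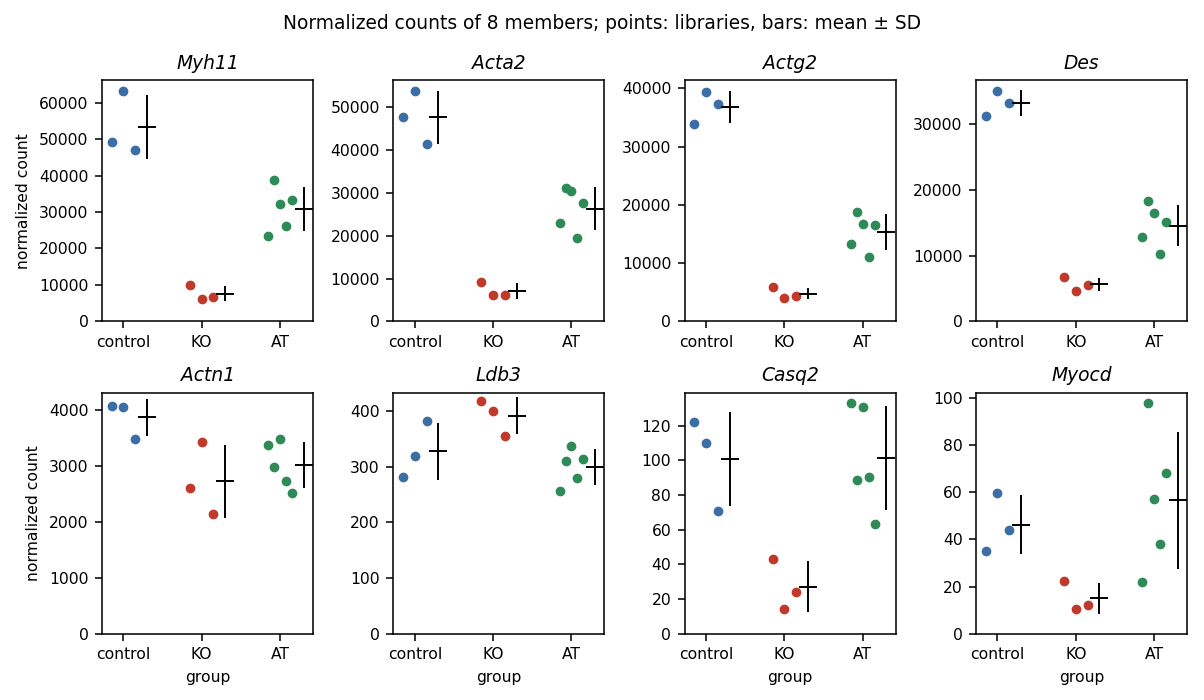
Normalized counts of 8 members in each library of the control (n = 3), KO (n = 3) and AT (n = 5) groups, on linear axes from 0, with bars for mean and SD. Myh11, Acta2, Actg2 and Des separate all 3 groups, whereas for Actn1 and Ldb3 the groups lie close together and for Casq2 and Myocd the AT and control libraries overlap.

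The myosin motor and its switch moved together. Myh11 (chr16:14012399-14109236), the smooth muscle myosin heavy chain, had 49266, 63281 and 47126 normalized counts in control, 9966, 6111 and 6794 in KO and 23510, 38657, 32290, 26047 and 33343 in AT libraries. All KO libraries were below all AT libraries, and these were below all control libraries. Its log2 fold change was -2.82 in KO against control (standard error 0.23, adjusted p = 9.87e-06, limma) and 2.02 in AT against KO (standard error 0.20, adjusted p = 0.000117). Between AT and control it was -0.80 and not called (standard error 0.20, adjusted p = 0.0709).

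Myl9, the regulatory light chain that is phosphorylated in contraction, fell by 2.75 on the log2 scale in KO (standard error 0.19, adjusted p = 5.75e-06, limma) and Mylk, the kinase that does this, by 2.42 (standard error 0.19, adjusted p = 8.63e-06). Mylk had 18808, 24034 and 16596 normalized counts in control, 4306, 3193 and 3565 in KO and 9543, 13522, 12359, 8950 and 12453 in AT libraries, without overlap between groups. The opposing phosphatase was represented by Ppp1r12b, the gene of one of its targeting subunits, and by Ppp1r14a, whose product CPI-17 inhibits it. Ppp1r12b fell by 2.58 and Ppp1r14a by 2.07 in KO (standard errors 0.23 and 0.22, adjusted p = 1.99e-05 and 5.34e-05, limma), so that kinase, phosphatase subunit and inhibitor were all lower. All 5 genes of this role rose in AT against KO, and 2 of 5, Myl9 and Mylk, were called lower in AT against control.

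Of the intermediate filament genes, Des (chr1:75320511-75345223), which encodes desmin, had 31242, 35081 and 33261 normalized counts in control, 6678, 4670 and 5468 in KO and 12819, 18222, 16532, 10157 and 15041 in AT libraries. The groups did not overlap, and AT colon held 43.8% ± 9.52 of the control mean (SD, n = 5). After Actg2, Des had the largest difference between AT and control (-1.22 on the log2 scale, standard error 0.18, adjusted p = 0.0198, limma). Synm, the gene of the desmin partner synemin, fell by 2.57 in KO (standard error 0.30, adjusted p = 7.95e-05) and rose by 1.84 in AT against KO (standard error 0.27, adjusted p = 0.00075). Its AT libraries spread widely, with 1379, 3033, 2219, 1792 and 3249 normalized counts against 2973, 4398 and 3857 in control, and overlapped the control libraries.

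The 12 genes of dense bodies, dense plaques and actin linkers held the members that departed most from the rest. For 9 of them the log2 fold change between KO and control lay between -2.99 (Pdlim3, a linker of alpha-actinin) and -2.17 (Csrp1, a LIM protein of actin filaments). Among these were Smtn, the actin-binding smoothelin of contractile cells, with -2.75 (standard error 0.20), Synpo2, a dense body protein, with -2.61 (standard error 0.29), Flnc, the filamin of muscle, with -2.72 (standard error 0.22), and Tns1, a tensin of integrin adhesions, with -2.81 (standard error 0.16). Tns1 had the smallest adjusted p of all members (2.95e-06, limma). Flna, the widely used filamin, fell by 2.31 (standard error 0.21) and Pgm5, a phosphoglucomutase relative of dense plaques, by 2.54 (standard error 0.23). Itga8, the integrin alpha8 subunit, was a low gene with 45.2 to 90.5 normalized counts in control and 6.57 to 15.7 in KO libraries, and fell by 2.59 (standard error 0.37, adjusted p = 0.000242).

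Pdlim7, Actn1 and Ldb3 moved less or not at all. Pdlim7, a PDZ and LIM protein also used outside muscle, had 2175, 2637 and 2276 normalized counts in control, 863, 1035 and 758 in KO and 1201, 1611, 1563, 1012 and 1113 in AT libraries. It fell by 1.42 on the log2 scale in KO (standard error 0.18, adjusted p = 0.00014, limma), and its rise of 0.54 in AT against KO (standard error 0.16, adjusted p = 0.027) left AT and KO libraries overlapping. This rise was no longer called without KO replicate 1 or 4 or AT replicate 2 or 3 (adjusted p = 0.0662, 0.123, 0.0545 and 0.0567). AT colon held 55.0% ± 11.5 of the control mean (SD, n = 5). The log2 fold change of Pdlim7 between AT and control, -0.88, was near the median of -0.80 over the members.

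Actn1, the alpha-actinin of dense bodies and of nonmuscle adhesions, had 4080, 4058 and 3493 normalized counts in control, 2606, 3437 and 2154 in KO and 3383, 2991, 3492, 2729 and 2514 in AT libraries. The groups came close to each other, with the highest KO and AT libraries just under the lowest control library. Its log2 fold change was -0.53 in KO against control (standard error 0.17, adjusted p = 0.0252, limma) and 0.16 in AT against KO (standard error 0.15, adjusted p = 0.45). The first was not called without control replicate 1 or 2 or without KO replicate 1 or 4 (adjusted p = 0.0698, 0.0761, 0.0619 and 0.107).

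Ldb3 (chr14:34248056-34312351), whose product ZASP is a Z-disc protein of striated muscle, went against the other members. It had 282, 319 and 383 normalized counts in control, 419, 401 and 356 in KO and 256, 311, 338, 280 and 314 in AT libraries. KO and control libraries overlapped (log2 fold change 0.27, standard error 0.14, adjusted p = 0.153, limma), and all AT libraries lay below all KO libraries (-0.39, standard error 0.13, adjusted p = 0.0389). The latter call was lost with quantile normalization (adjusted p = 0.0555) and without any single KO library, control replicate 2, or AT replicate 1, 2 or 4 (adjusted p = 0.0523 to 0.121).

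**Figure D3:**
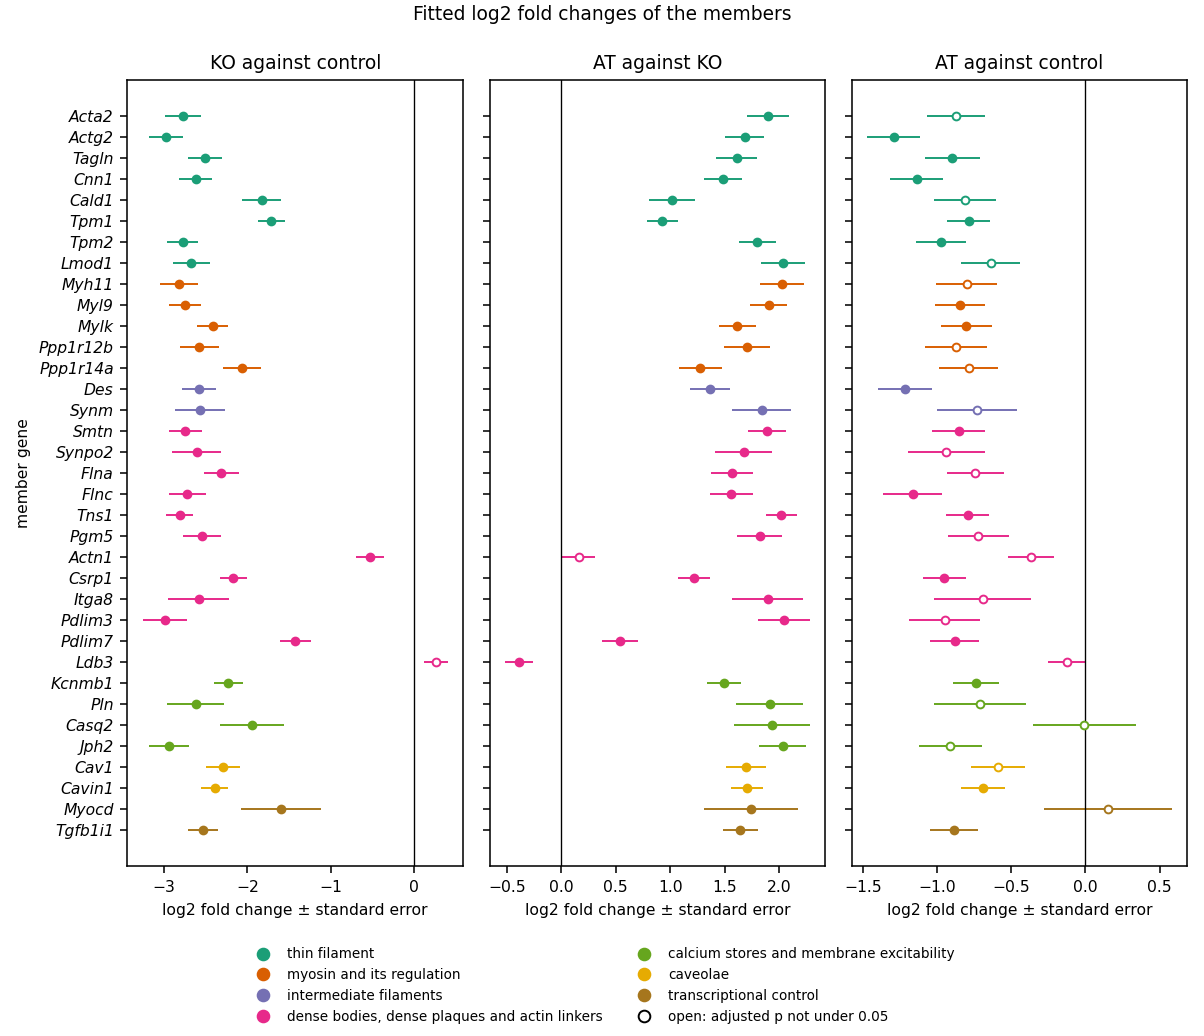
Fitted log2 fold change with standard error of each member in the comparisons of KO with control, AT with KO and AT with control, coloured by role, with open symbols where the adjusted p was not under 0.05. Most members form a band near -2.6, 1.7 and -0.8 in the 3 panels, from which Actn1, Pdlim7 and Ldb3 stand off toward 0 in the first 2, and Casq2 and Myocd lie at 0 in the third.

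Genes of calcium stores and membrane excitability fell by similar amounts. Jph2, a junctophilin that ties the sarcoplasmic reticulum to the cell membrane, fell by 2.94 on the log2 scale in KO (standard error 0.24, adjusted p = 1.05e-05, limma), Pln, the gene of phospholamban, which restrains the calcium pump of the store, by 2.62 (standard error 0.35, adjusted p = 0.000162), and Kcnmb1, the smooth muscle beta subunit of the BK potassium channel, by 2.23 (standard error 0.17, adjusted p = 8.37e-06). All 4 genes of this role rose in AT against KO, by 1.49 to 2.03. Against control, Kcnmb1 was called lower in AT (-0.74, standard error 0.15, adjusted p = 0.0438).

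Casq2, a calsequestrin that buffers stored calcium, had AT values around those of control, from below to above the control range. It had 122, 110 and 70.6 normalized counts in control, 43.1, 14.5 and 24.1 in KO and 133, 88.5, 131, 90.5 and 63.5 in AT libraries. KO lay below both other groups, and AT and control libraries overlapped. Its log2 fold changes were -1.94 in KO against control (standard error 0.39, adjusted p = 0.00193, limma), 1.94 in AT against KO (standard error 0.35, adjusted p = 0.00213) and -0.01 in AT against control (standard error 0.35, adjusted p = 0.993). That its difference from control was smaller than that of the other members was not tested. The annotated spans of 5 members overlap a gene on the opposite strand that had more than 10% of the member's mean level. They are Kcnmb1 (Kcnip1, over 33399 bases), Pln (Cep85l, 23891), Tagln (Pcsk7, 123), Cnn1 (Elof1, 961) and Smtn (Gm11946, 6719, and Selenom, 32). The sources used here do not give the strand setting of the counter. Reads of these pairs could have been shared, and the values of the 5 members are uncertain to that extent.

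Caveolae are small pits of the muscle cell membrane where receptors and channels gather. Cav1, the gene of their coat protein caveolin, had 2717, 3208 and 2173 normalized counts in control, 719, 390 and 575 in KO and 1683, 2037, 1923, 1633 and 1609 in AT libraries. Cavin1, needed to form them, had 3469, 4088 and 3319 in control, 845, 593 and 647 in KO and 2173, 2695, 2549, 1886 and 1988 in AT libraries. For both genes the groups did not overlap. Their log2 fold changes were -2.29 (standard error 0.20) and -2.39 (standard error 0.16) in KO against control and 1.70 each in AT against KO. Against control, Cavin1 was called lower in AT (-0.69, standard error 0.15, adjusted p = 0.0453, limma) and Cav1 was not (-0.59, standard error 0.18, adjusted p = 0.117).

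Of the transcriptional regulators, Myocd (chr11:65067387-65160828), the gene of myocardin, was among the lowest members and had the largest standard error. It had 34.9, 59.6 and 44.1 normalized counts in control, 22.5, 10.7 and 12.0 in KO and 21.9 (replicate 1) to 97.6 (replicate 2) in AT libraries, with a mean of 56.5 ± 29.0 (SD, n = 5). KO lay below control, and the AT libraries ran from within the KO range to above the control range. Its log2 fold change was -1.59 in KO against control (standard error 0.48, adjusted p = 0.0184, limma), 1.74 in AT against KO (standard error 0.43, adjusted p = 0.0106) and 0.15 in AT against control (standard error 0.43, adjusted p = 0.876). The first was not called with quantile normalization or a block for replicate numbers (adjusted p = 0.0521 and 0.0705, limma). Nor was it called without control replicate 2 or KO replicate 3 or 4 (adjusted p = 0.0704, 0.0686 and 0.0583). The second was not called without KO replicate 3 (adjusted p = 0.0545).

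Tgfb1i1, the gene of the focal adhesion protein and coactivator Hic-5, followed the structural genes. It had 2716, 2785 and 1937 normalized counts in control, 508, 345 and 433 in KO and 1472, 1384, 1493, 1071 and 1258 in AT libraries, without overlap. It fell by 2.53 in KO (standard error 0.18, adjusted p = 5.82e-06, limma), and in AT colon it was lower than in control (-0.88, standard error 0.16, adjusted p = 0.0295).

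Each of 11 muscle proteins was set against a related protein, listed here as its nonmuscle counterpart. The log2 ratio of normalized counts was taken within a library, which needs no scaling between libraries. Differences between groups in such a ratio do not depend on gene length, and its size does. In KO against control the ratio was lower for all 11 pairs, with no overlap between libraries and differences from -3.58 (Tpm2 to Tpm4) to -1.04 (Actn1 to Actn4). An exact permutation test of 3 against 3 libraries cannot go below p = 0.1, which each pair reached (adjusted p = 0.107 over 33 tests). In AT against KO the ratio was higher in all libraries for 9 pairs and in AT against control lower in all libraries for 10, each with the smallest p that 5 against 3 libraries allow (exact permutation test, two-sided, p = 0.0357, adjusted p = 0.062). No pair was thus called after adjustment.

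The ratio of Myh11 to Myh9, the nonmuscle myosin of many cell types, was 2.73, 3.20 and 2.48 in control, 0.00, -1.02 and -0.85 in KO and 1.28, 2.34, 1.89, 1.43 and 1.97 in AT libraries. The ratio of Acta2 to Actb, the actin of all cells, was 0.19, 0.02 and -0.36 in control, -2.46, -3.41 and -3.68 in KO and -0.76, -0.59, -0.59, -1.16 and -1.10 in AT libraries. In both pairs the groups were apart. The ratio of Des to Vim, the intermediate filament protein of mesenchymal cells, overlapped between AT (1.58 to 2.86) and KO (1.06 to 1.68). Vim itself was higher in AT than in KO (log2 fold change 0.45, standard error 0.14, adjusted p = 0.0346, limma).

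**Figure D4:**
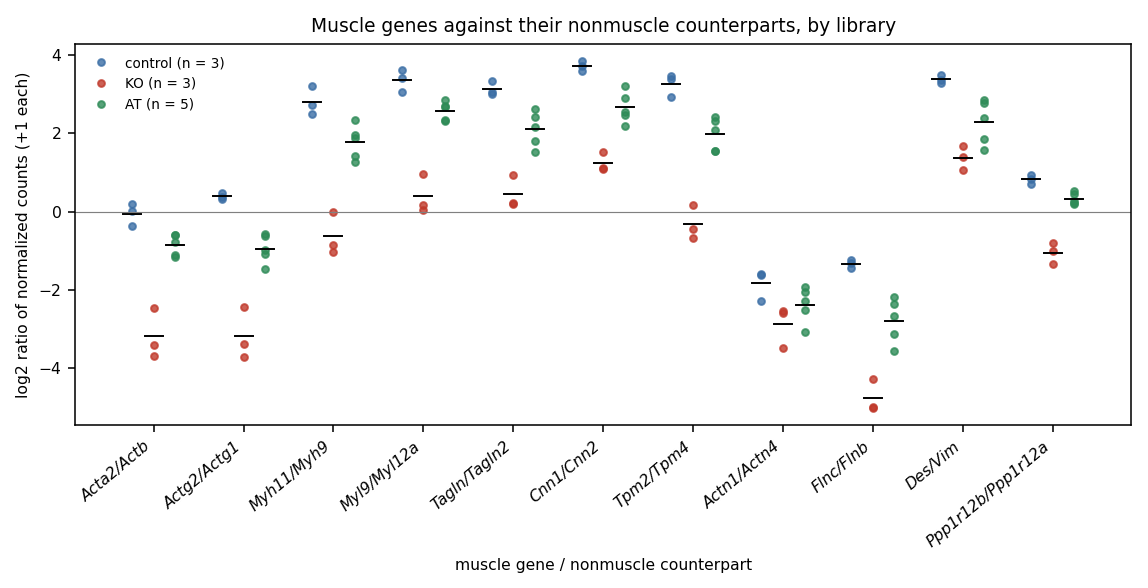
Log2 ratio of normalized counts (1 added to each) of 11 muscle genes to their nonmuscle counterparts in each library, with group means as bars. The KO libraries lie below the control libraries in all 11 pairs, and the AT libraries between them in most, with overlap with KO for Actn1/Actn4 and Des/Vim.

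The nonmuscle counterparts moved both ways. Of 17, 5 were called higher and 6 lower in KO against control, and their median was 0.17 on the log2 scale. Among the 6 was Ppp1r12a, paired with Ppp1r12b (-0.71, standard error 0.19, adjusted p = 0.0101, limma). A place on this list does not exclude use in muscle cells. In AT against control limma called 0 of 17, with 3 at an unadjusted p under 0.05, edgeR 0 and DESeq2 0. Tpm3 and Tpm4, the tropomyosins of nonmuscle cells, had 5225 ± 252 and 2151 ± 260 normalized counts in control, 10230 ± 1679 and 3746 ± 402 in KO (SD, n = 3 each) and 5878 ± 843 and 2665 ± 378 in AT (SD, n = 5 each). They rose by 0.96 and 0.80 on the log2 scale in KO (standard errors 0.15 each, adjusted p = 0.000477 and 0.00114, limma).

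Other genes of muscle function were given as lists. Of 10 tested transcription factors and coactivators of smooth muscle, 5 fell and 1 rose in KO, and the median was -0.78 on the log2 scale. Carmn, a long noncoding RNA of contractile muscle, had a log2 fold change of -2.75 (standard error 0.38) and Foxf1, a factor of gut mesenchyme, of -1.27 (standard error 0.21). Srf, which encodes serum response factor and was chosen after its values were seen, fell by 0.60 (standard error 0.14, adjusted p = 0.00535, limma), and its difference between AT and KO was not called (0.25, standard error 0.13, adjusted p = 0.157). Of the same list, and also chosen after the values were seen, Gata6 was the gene that rose in KO (0.33, standard error 0.12, adjusted p = 0.0455, limma). The coactivator genes Mrtfa and Mrtfb were not called in KO against control (-0.006 and 0.26, adjusted p = 0.975 and 0.224, limma). The difference between Srf and the members was not tested.

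Of 14 genes of contraction and relaxation signalling, 9 fell and 3 rose in KO, and 9 rose and 2 fell in AT against KO. Tacr2, the tachykinin receptor of gut muscle, had 111 ± 22.4 normalized counts in control, 15.3 ± 4.14 in KO (SD, n = 3 each) and 80.2 ± 25.1 in AT (SD, n = 5), and Irag1, which acts in nitric oxide relaxation, 1712 ± 393, 346 ± 107 and 1097 ± 177. Of 12 channels and pumps, 9 fell and 1 rose, among them Cacna1c, the pore of the L-type calcium channel (log2 fold change -2.21, standard error 0.22), and Atp2b4, a calcium pump of the cell membrane (-2.64, standard error 0.25). In AT against KO, 7 of the 12 rose and 2 fell. In AT against control limma called 0 genes of both lists, and 4 of the 14 and 6 of the 12 had an unadjusted p under 0.05; edgeR called 0 and 0 and DESeq2 2 and 3.

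Of 15 genes of dystrophin and integrin anchorage, 14 fell and 0 rose in KO, with a median of -1.04. Sgca, the gene of alpha-sarcoglycan, had 111 ± 20.3 normalized counts in control, 11.6 ± 2.36 in KO (SD, n = 3 each) and 49.5 ± 8.45 in AT (SD, n = 5), and was 1 of 2 genes of the list that limma called lower in AT against control, where 9 of 15 had an unadjusted p under 0.05, edgeR called 2 and DESeq2 5 (for Sgca -1.15, standard error 0.22, adjusted p = 0.0296, limma). Of 16 further cytoskeletal and chaperone genes, 13 fell and 2 rose in KO. In AT against control limma called 3 of them lower, 11 had an unadjusted p under 0.05, edgeR called 3 and DESeq2 8. Among the 3 were the small heat shock protein gene Hspb6 and Cavin3, a further coat protein of caveolae (-0.73 and -0.76, standard errors 0.14 each). Background shares of called genes in these comparisons are those given above.

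Many but not all markers of other cells of the wall moved with the members, and their part in the result was not tested. In KO against control, 10 of 12 markers of enteric neurons, 6 of 6 of enteric glia, 9 of 9 of fat cells, 5 of 7 of pericytes, 3 of 6 of interstitial pacemaker cells and 3 of 6 of mesothelium were called lower and none higher. Their median log2 fold changes were -2.23, -2.23, -3.83, -1.23, -0.67 and -2.04. Not called among the pacemaker markers were Kit (-0.62, adjusted p = 0.227, limma), Ano1 (-0.23, adjusted p = 0.512) and Thbs4 (0.37, adjusted p = 0.685). The pericyte markers not called were Pdgfrb (0.22, adjusted p = 0.451, limma) and Notch3 (-0.64, adjusted p = 0.178). The summed normalized counts of the neuron markers ran from 2352 to 4654 in control, 497 to 1319 in KO and 1571 to 3187 in AT libraries, and those of the glia markers from 6745 to 9516, 3791 to 4651 and 4767 to 7336. Most of the glia sum came from Erbb3, with 7282 ± 1254 normalized counts in control and 4101 ± 426 in KO (SD, n = 3 each). Erbb3 had the smallest fall of the glia list (-0.82 on the log2 scale, standard error 0.18), so this sum understates the fall of the other glia markers. Pericyte markers summed to 13140 to 16704 in control, 3345 to 4804 in KO and 7041 to 10352 in AT libraries. Rgs5, a pericyte marker also made by other mural cells, took most of that sum, with 11150 ± 1643 normalized counts in control (SD, n = 3). The fat cell markers summed to 4856 to 15656 in control, 1087 to 2237 in KO and 5057 to 10598 in AT libraries.

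Of 10 fibroblast markers 3 fell and of 9 endothelial markers 3 fell in KO, with medians of -0.48 and -0.45, and of 10 epithelial markers 2 rose, with a median of 0.22. The summed epithelial markers ran from 307040 to 379130 in control, 357130 to 461860 in KO and 316850 to 441050 in AT libraries. The pacemaker markers summed to 1722 to 3151, 1226 to 2361 and 1310 to 3307, the mesothelial markers to 208 to 444, 64.6 to 197 and 139 to 299.8, the fibroblast markers to 18396 to 23982, 14045 to 16662 and 15777 to 25178, and the endothelial markers to 3074 to 3935, 2438 to 2934 and 2621 to 3710 in control, KO and AT libraries. Of 6 tested striated muscle markers 5 were called lower in KO, with a median of -2.17. These markers were low, with summed counts of 1401 to 1772 in control, 187 to 309.9 in KO and 638 to 928 in AT libraries, most of them from Ckm, a muscle creatine kinase with 1252 ± 199 normalized counts in control (SD, n = 3), and 6 of the 12 listed genes, among them Myh2, Tnnt3 and Mb, were not tested because they were too low or not in the table. Myh2, a myosin of fast skeletal fibres, was at 0 in all KO libraries, but had only 3.77 to 6.96 normalized counts in control and 0 to 5.48 in AT libraries. In AT against control 1 of 7 pericyte markers, Kcnj8, was called lower (-0.73, standard error 0.15, adjusted p = 0.0392, limma).

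**Figure D5:**
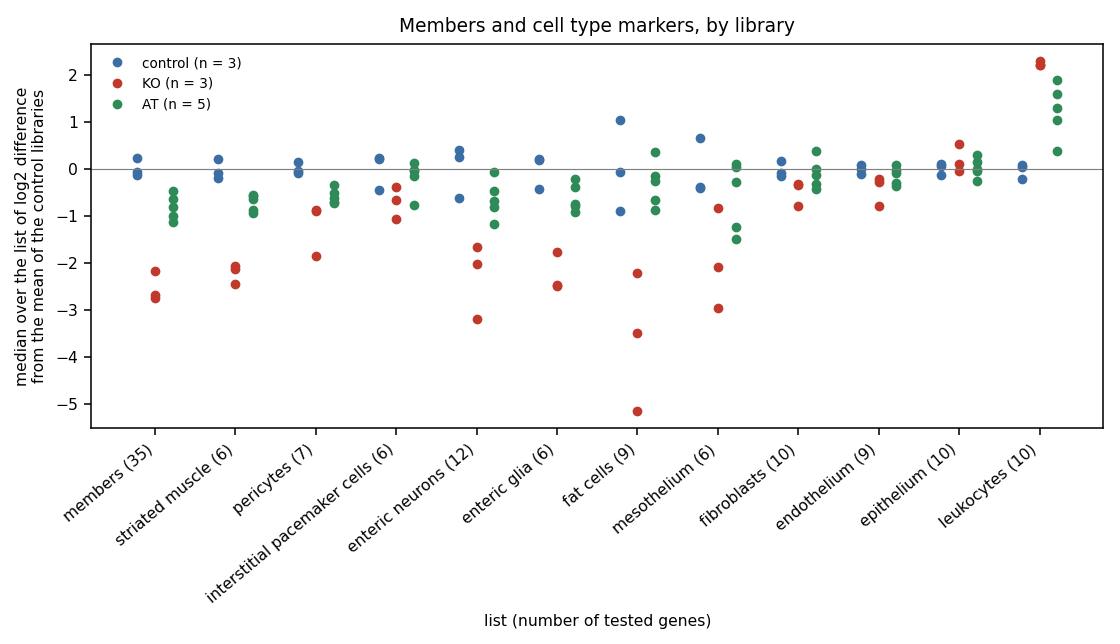
Median over each list of the log2 difference from the mean of the control libraries, for the 35 members and for markers of 11 other cell types, with 1 point per library. Members, striated muscle, neurons, glia and fat cells lie far below 0 in the KO libraries, fibroblasts and endothelium lie between -0.79 and -0.22 in the KO libraries and epithelium between -0.04 and 0.52, and leukocytes lie above 0 in KO and in all AT libraries.

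Leukocyte markers went the other way, with 9 of 10 called higher in KO against control and 5 of 10 in AT against control. Their summed normalized counts were 1291 to 1675 in control, 6140 to 6792 in KO and 1905 to 4840 in AT libraries. Within the AT group the libraries can be set side by side, with no test on 5 libraries. AT replicate 2, with the highest median of the members (-0.47), had the lowest median of the leukocyte markers (0.38), and AT replicate 4, with the lowest median of the members (-1.13), the highest (1.88). Cd4 itself had 80.5 normalized counts in AT replicate 2, 137 in replicate 5, 183 in replicate 3, 332 in replicate 1 and 345 in replicate 4, the reverse of the order of the members except that replicates 3 and 5 change places. The part of leukocyte RNA in the members' levels was not tested. The reads of mitochondrial genes, 2.55% to 3.44% in KO, 4.63% to 6.73% in control and 3.84% to 4.82% in AT libraries, also moved with the groups, and their part in the result was not tested.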

How the data were processed

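Polyadenylated RNA of unsorted mouse colon tissue was sequenced in 11 libraries of 3 groups, prepared at BGI per the labels. Per the submitters' processing notes and the study's methods, the authors aligned reads to GRCm39 with HISAT2 (2.2.1; the methods also name STAR, without saying for which libraries), used SAMtools (1.13), counted reads per gene with HTSeq (1.99.2) and ran DESeq2 (1.40.2 in the processing notes; the methods give a later version). The libraries were stranded; which annotation release and strand setting the counter used is not given in the sources used here. The deposited signal values are counts that the authors divided by 1 factor per library, in 1 table of 22836 genes. A single factor leaves changes in tissue makeup in the values. All values were whole multiples of 1 step per library within 0.05 (100%), which gave back the reads; at this depth 10 normalized counts rest on about 10 reads. Genes were named, placed and measured (union of exons) with GENCODE of GRCm39, which held 99.2% of identifiers.

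Log2(normalized count + 1) of genes averaging 10 or more went into 1 limma fit of all 3 groups (version 3.58.1 in R 4.3.3), with a trend of the variance on the mean. Genes were called at a Benjamini-Hochberg adjusted p under 0.05 over all 16781 genes. Ratios of pairs were compared with exact permutation tests. The scripts were tested on simulated data. The members and lists were chosen with earlier results of these data known. All members are named, with both genes of each pair, the 2 genes of each other list with the smallest adjusted p in KO against control, and Tfam and Cd4; others were chosen after their values were seen. Libraries of 1 group differed by more than sampling noise, so none was merged. The alternatives were pseudocounts of 0.5 and 10, no filter or a mean of 50, quantile and TMM scaling, count models fitted to the recovered reads (edgeR 4.0.16, DESeq2 1.42.0), a fit restricted to the pair of groups at hand, a fit without the variance trend, a block for replicate numbers, the study's own threshold (a log2 change above 0.6 at an unadjusted p under 0.05) and each library left out in turn.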

Additional observations from a re-analysis of the deposited data

How the results depend on the processing

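In KO against control, 32 to 34 members were called under every alternative run, and in AT against KO likewise 32 to 34. In AT against control the 16 members called became 28 with DESeq2, 9 when the variance trend was dropped, 1 when KO was kept out of the fit and 29 at the threshold of the study, and 0 to 24 with single libraries left out. Keeping KO out of the fit left fewer samples to estimate the spread, and the calls over all genes fell from 268 to 23. The median of the members moved by less than the spread between libraries under every alternative run. The log2 fold change of Casq2 between AT and control, -0.01 and not called, was 0.00726 with TMM scaling, 0.0173 with edgeR and 0.193 with the replicate block, and ran from -0.2435 to 0.1453 with single libraries left out. That of Myocd, 0.15 and not called, ran from -0.08427 to 0.4421 with single libraries left out. The cause was not tested. A mean of 50 or more removed Itga8 and Myocd from the tests. Some replicate numbers occur in more than 1 group. Correlations of the deviations of same-numbered libraries ran from -0.10 to 0.39, and in 4 of 8 such pairs the match was the best one, so the numbers were not taken as pairs. With the replicate block, 33, 34 and 19 members were called in the comparisons of KO with control, AT with KO and AT with control; the call it lost in the first was Myocd (-1.20, adjusted p = 0.0705, limma). Members with few reads, such as Itga8, Myocd and Casq2, carry the largest counting error.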
